A study of Mus musculus with 24 samples.

Results

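Expression of 10 genes of the alveolar lipofibroblasts and myofibroblasts, and of the signals that pass between these cells and the epithelium, was examined in the lungs of newborn mice by RNA sequencing. The genes were Pdgfa, Pdgfra, Tcf21, Plin2, Fgf10, Fgf18, Acta2, Tagln, Hhip and Gli1. They were chosen by name and taken as the rows of the lung table whose Ensembl identifier carries one of these symbols. All 10 were found among the 36109 listed genes, and all 10 passed the filter on low counts that left 16819 genes for testing. In hyperoxia Pdgfra fell 4.60-fold in WT and 5.68-fold in KO lungs and Tcf21 fell with it, whereas Acta2, Gli1, Hhip and Pdgfa rose, and no difference between the genotypes passed edgeR's quasi-likelihood test for any of the 10, while DESeq2 passed 1, Fgf10 in room air.

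The samples were 12 whole lungs, each from its own mouse, in 4 groups of 3. WT-RA lungs came from wild-type mice kept in room air (21% O2), and WT-O2 lungs from wild-type mice kept in hyperoxia (85% O2). KO-RA and KO-O2 lungs came from GSDMD-KO mice under the same conditions. Exposure ran from postnatal day 1 to 14 and lungs were taken on postnatal day 15, so every group was of the same age. The knockout is carried by all cells from conception on a C57/B6 background, the alleles being small CRISPR/Cas9 deletions in an exon of Gsdmd, which encodes the pore-forming protein gasdermin D. By the study's methods, homozygous KO mice and their WT littermates came from matings of heterozygotes. Which of the 12 lungs shared a litter is not stated there. The design asks how hyperoxia changes the newborn lung, and whether lungs without gasdermin D respond differently.

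Alveoli form after birth in the mouse, when ridges called secondary septa grow into the airspaces. Epithelial cells release PDGF-A, encoded by Pdgfa, which acts on the receptor PDGFRA of neighbouring fibroblasts. Myofibroblasts at the septal tips make elastin and contractile proteins such as smooth muscle actin (Acta2) and transgelin (Tagln), while lipofibroblasts hold lipid droplets coated by perilipin 2 (Plin2), make FGF10 and express the transcription factor TCF21. Hedgehog ligands from the epithelium signal to the same mesenchyme, where Gli1 and the ligand-binding inhibitor Hhip are classical target genes. In a whole lung, fewer cells of one type and less RNA per cell cannot be told apart, and Acta2 and Tagln are also made by the smooth muscle of airways and vessels.

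Estimated counts summed to between 28763661 and 29604254 per lung. Levels are given as CPM, counts relative to library sizes scaled by the trimmed mean of M values (TMM). A gene passed when edgeR's quasi-likelihood test gave a Benjamini-Hochberg adjusted p under 0.1 over all tested genes, and was called when it also had an unadjusted p under 0.05 and at least a 2-fold change. Gsdmd was at 40.4 to 43.2 CPM of the unscaled total in WT-RA, 32.1 to 36.2 in WT-O2, 23.2 to 25.2 in KO-RA and 11.4 to 16.7 in KO-O2 lungs. Its RNA was lower but still present in the KO lungs, which carry a small deletion. Transcripts of 4 Y-linked genes summed to at least 20 CPM in no WT-RA lung, 1 WT-O2 lung, 2 KO-RA lungs and all 3 KO-O2 lungs. 2 libraries stood furthest from the others of their group by a chi-square of counts over its degrees of freedom. WT-RA replicate 3 differed from its group at 29.6 and 47.6, and KO-O2 replicate 3 at 41 and 45.4, against 13.4 to 26.7 for the other pairs.

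Promoters of 3 members are shown because these genes carried the largest changes in each direction for which a sequence was at hand. Each line holds 300 bases from RefSeq (GRCm38.p6), read 5′ to 3′ on the gene's strand, with the transcription start at base 251. Acta2 lies at chr19:34255324-34255623 on the minus strand, and capitals mark CArG-like elements and GGAATG. CArG boxes bind serum response factor, and GGAATG is the core bound by TEAD factors. Pdgfra lies at chr5:75152001-75152300 on the plus strand, and capitals mark E-boxes, CANNTG, the letters bound by basic helix-loop-helix factors such as TCF21. Hhip lies at chr8:80057959-80058258 on the minus strand, and capitals mark GC boxes, GGGCGG or its reverse complement.
Acta2: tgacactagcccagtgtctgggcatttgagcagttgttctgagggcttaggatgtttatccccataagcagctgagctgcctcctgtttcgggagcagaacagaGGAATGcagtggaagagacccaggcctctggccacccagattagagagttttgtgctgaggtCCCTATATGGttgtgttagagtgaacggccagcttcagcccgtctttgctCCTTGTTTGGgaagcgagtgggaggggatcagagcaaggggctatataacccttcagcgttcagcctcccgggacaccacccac
Pdgfra: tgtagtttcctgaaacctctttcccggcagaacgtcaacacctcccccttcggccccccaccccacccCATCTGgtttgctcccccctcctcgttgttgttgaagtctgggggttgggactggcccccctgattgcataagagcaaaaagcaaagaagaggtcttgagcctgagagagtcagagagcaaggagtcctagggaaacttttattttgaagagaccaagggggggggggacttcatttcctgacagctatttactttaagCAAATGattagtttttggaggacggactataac
Hhip: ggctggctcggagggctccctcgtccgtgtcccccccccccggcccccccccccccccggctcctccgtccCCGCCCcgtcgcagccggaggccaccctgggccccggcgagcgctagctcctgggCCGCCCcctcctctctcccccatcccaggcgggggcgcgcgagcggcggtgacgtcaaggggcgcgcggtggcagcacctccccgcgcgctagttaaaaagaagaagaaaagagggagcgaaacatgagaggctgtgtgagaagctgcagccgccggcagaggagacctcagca

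Both strands were searched in each window. The Acta2 window held 2 CArG-like elements, CCCTATATGG at bases 167 to 176 and CCTTGTTTGG at bases 217 to 226. CArG-like here means CC and GG around 6 bases of which at least 5 are A or T, and 9.98% of 32851 mouse promoter windows of this length held one. A strict CArG box, with all 6 inner bases A or T, was in 1.63% of windows and in none of the 8 members with a window. The same Acta2 window held GGAATG at bases 105 to 110, as did 14.7% of windows. CANNTG occurred in the Pdgfra window at bases 69 to 74 and 268 to 273, and in 72.3% of all windows. GGGCGG occurred on the minus strand of the Hhip window at bases 72 to 77 and 127 to 132, and in 35.7% of all windows. GACCACCCA, the letters bound by GLI factors, was in 0.253% of windows and in none of these 8. These matches describe the letters of the windows and are not measured binding sites.

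In WT lungs, hyperoxia raised 6 members (Pdgfa, Plin2, Acta2, Tagln, Hhip and Gli1) and lowered 2 (Pdgfra and Tcf21), while Fgf10 and Fgf18 did not pass. Over all tested genes 24.5% passed as higher and 24.7% as lower in this comparison. In KO lungs, the 5 members Pdgfa, Plin2, Acta2, Hhip and Gli1 rose and the same 2 fell, with 23.3% of all genes higher and 23.4% lower. Called at 2-fold were Pdgfra, Acta2 and Gli1 in WT lungs and Pdgfra and Acta2 in KO lungs, where 11.6% and 10.6% of all genes were called. The 2-fold calls of Acta2 and Gli1 in WT lungs rested on single lungs, Acta2 being at 0.927 without WT-RA replicate 1 and Gli1 at 0.904 without WT-RA replicate 1, 0.945 without WT-O2 replicate 2 and 0.994 without WT-O2 replicate 3 on the log2 scale. The room air and hyperoxia lungs did not overlap for 7 members in WT, and for the same 7 in KO. Since 49.8% and 52.4% of all tested genes were also without overlap, non-overlap was common in these lungs. The median log2 fold change of the members was 0.325 in WT and 0.352 in KO lungs, against -0.01 in both for all tested genes.

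**Figure D1:**
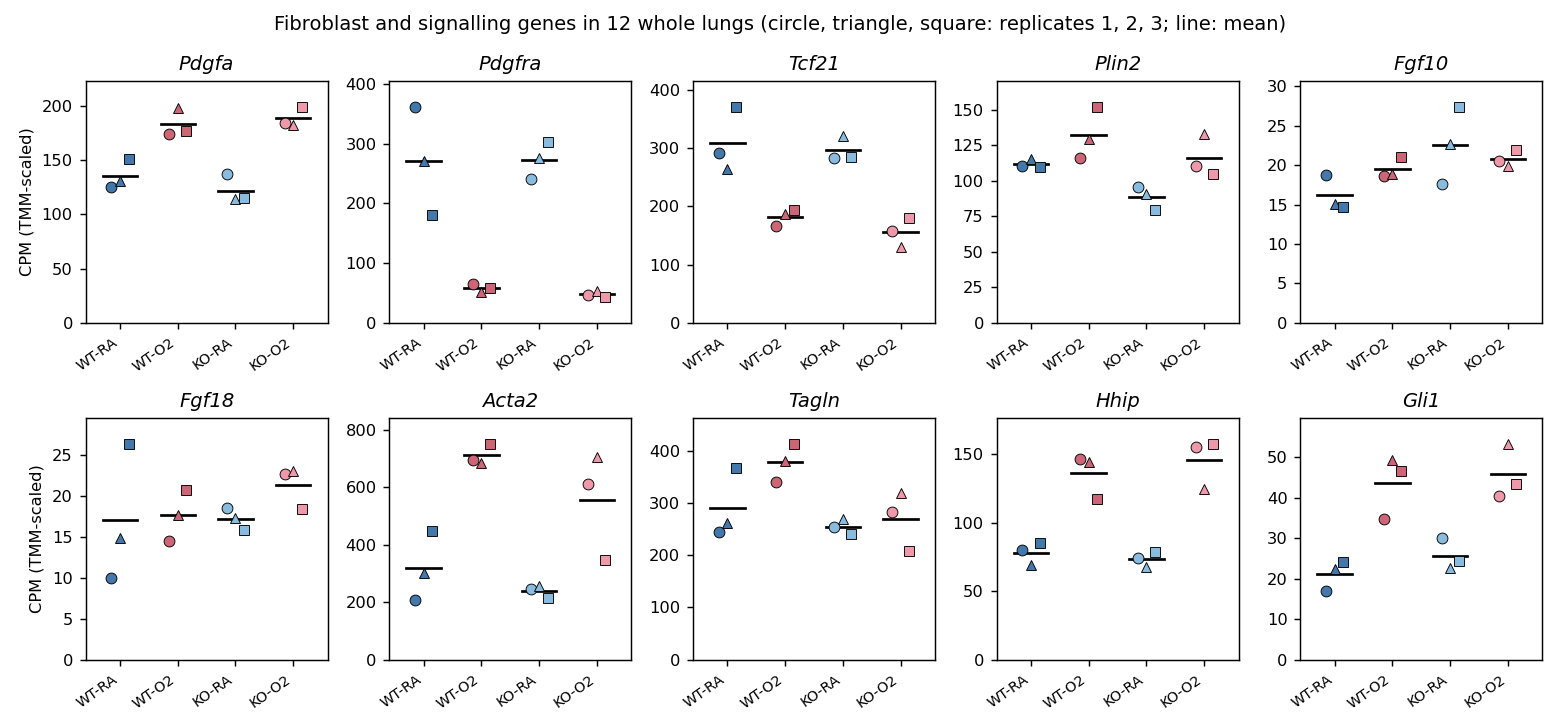
Level of each gene in the 12 lungs. The horizontal axis gives the group, the vertical axis CPM from 0, circles, triangles and squares are replicates 1, 2 and 3 of a group, and black lines are means; all 6 hyperoxia lungs lie below all 6 room air lungs for Pdgfra and Tcf21, and all 6 lie above them for Pdgfa, Hhip and Gli1.

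The PDGF receptor and its ligand moved in opposite directions. Pdgfra (chr5:75152292-75198215, plus strand, GRCm38), the receptor that marks alveolar fibroblasts, was at 361, 271 and 181 CPM in WT-RA lungs and at 65.9, 52.0 and 59.2 CPM in WT-O2 lungs. In KO lungs it was at 240.5, 275.5 and 303 CPM in room air and at 47.48, 53.49 and 43.15 CPM in hyperoxia. The groups were far apart, although the WT-RA lungs themselves spanned 181 to 361 CPM. The means were 271 ± 89.9 and 59.0 ± 6.96 CPM in WT and 273 ± 31.4 and 48.0 ± 5.19 CPM in KO lungs (SD, n = 3). Pdgfra fell by 2.2 on the log2 scale in WT lungs (SE 0.21, adjusted p = 8.48e-06), a level 4.60-fold lower. In KO lungs it fell by 2.51 (SE 0.213, adjusted p = 3.73e-06), 5.68-fold lower. Leaving out any 1 lung kept the WT change between -2.42 and -1.94 and the KO change between -2.59 and -2.43.

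Pdgfa (chr5:138976014-138997370, minus strand), the ligand, was at 125, 131 and 151 CPM in WT-RA and 174, 198 and 177 CPM in WT-O2 lungs. Its levels in KO lungs were 137, 114 and 115 CPM in room air and 184, 182 and 199 CPM in hyperoxia. Every hyperoxia lung was above every room air lung. The log2 fold change was 0.43 (SE 0.0953, adjusted p = 0.00228) in WT and 0.63 (SE 0.0955, adjusted p = 0.000129) in KO lungs. An annotated antisense gene, 6330403L08Rik, covers 813 exonic bases of Pdgfa, and 23.3% of the 31-base words of its transcripts occur in transcripts of other genes. The use of strand in counting is not given in the sources used here, so reads of this pair may not be told apart.

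The other PDGF ligands and receptors numbered 5, of which 2 rose, 1 fell and 2 did not pass in either genotype. Among all tested genes 24.5% rose and 24.7% fell in WT and 23.3% and 23.4% in KO lungs. Pdgfc, another ligand of PDGFRA, was low but rose from 1.58 ± 0.599 CPM in WT-RA to 5.54 ± 0.876 CPM in WT-O2 lungs (log2 fold change 1.81 , SE 0.251, adjusted p = 5.19e-05), and by 1.99 in KO lungs. Pdgfb, the endothelial ligand that recruits pericytes, rose by 0.27 in WT (adjusted p = 0.0712) and 0.51 in KO lungs. Pdgfrb, the receptor of pericytes and smooth muscle, fell, with log2 fold changes of -0.75 in WT (adjusted p = 0.000177) and -0.53 in KO lungs. Pdgfd, the remaining ligand of the list, was at -0.134 in WT and -0.16 in KO lungs and did not pass. Both receptor genes thus fell, while the ligand genes Pdgfa, Pdgfb and Pdgfc rose and Pdgfd did not pass.

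Tcf21 (chr10:22817281-22820174, minus strand), a transcription factor of the lipofibroblast lineage, was at 291, 265 and 370 CPM in WT-RA lungs and 167, 186 and 194 CPM in WT-O2 lungs. It was at 282, 320 and 285 CPM in KO-RA and 157, 130 and 180 CPM in KO-O2 lungs. All hyperoxia lungs were below all room air lungs. Tcf21 fell by 0.76 on the log2 scale in WT (SE 0.131, adjusted p = 0.000358) and by 0.93 in KO lungs (SE 0.131, adjusted p = 7.6e-05). Its fall was 1.69-fold in WT and 1.90-fold in KO lungs, smaller than that of Pdgfra.

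Among 17 tested genes of a list of other alveolar (matrix and lipid) fibroblast genes, 11 fell, 1 rose and 5 did not pass in WT lungs. In KO lungs 10 fell, 3 rose and 4 did not pass. Over all tested genes 24.7% fell and 24.5% rose in WT, and 23.4% fell and 23.3% rose in KO lungs. The list's median log2 fold change was -0.52 in WT and -0.50 in KO lungs, where the median of all genes was -0.01. Npnt, which encodes the basement membrane protein nephronectin, was at 1601 CPM in WT-RA and 649 CPM in WT-O2 lungs and fell by 1.30 on the log2 scale (SE 0.0918, adjusted p = 8.2e-08). Slc7a10, an amino acid transporter, fell by 2.59 (adjusted p = 3.51e-06). Fgfr4, an FGF receptor held by this list and the FGF list, fell by 1.405 (adjusted p = 3.07e-06). Inmt, a methyltransferase named after its values were seen, had the widest fall of the list, to 77.4 from 861 CPM for WT and to 60.1 from 648 CPM for KO lungs. Tbx2, Tbx4 and Tbx5, T-box factors of the lung mesenchyme also named after the fact, changed by -0.66, -0.455 and -0.52 in WT lungs. The change of Tcf21 there was -0.76. Adh1, which encodes an alcohol dehydrogenase, was the 1 gene of the list that rose in WT lungs (log2 fold change 0.52, adjusted p = 0.0464).

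Plin2 (chr4:86648386-86670060, minus strand), the lipid droplet coat protein, was at 111, 116 and 109.5 CPM in WT-RA and at 116, 129 and 152 CPM in WT-O2 lungs. It was at 95.4, 90.7 and 79.5 CPM in KO-RA and 110.5, 133 and 105 CPM in KO-O2 lungs. The lowest WT-O2 lung lay just above the highest WT-RA lung. Plin2 changed by 0.24 on the log2 scale in WT (SE 0.109, adjusted p = 0.0903) and 0.39 in KO lungs (SE 0.11, adjusted p = 0.0113). In WT lungs Plin2 did not pass in 7 of the 12 fits that left out 1 lung, with the change between 0.135 and 0.33. Plin2 therefore did not share the direction of Pdgfra and Tcf21.

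Of 21 other lipid droplet and PPAR target genes, 4 rose, 5 fell and 12 did not pass in WT lungs, and 4 rose, 7 fell and 10 did not pass in KO lungs. Hilpda, an inhibitor of lipolysis that sits on lipid droplets, was at 56.5 CPM in WT-RA and 15.1 CPM in WT-O2 lungs, a change of -1.905 on the log2 scale (SE 0.133, adjusted p = 7.62e-08), and its change in KO lungs was -1.83. G0s2, another inhibitor of lipolysis, changed by -1.11 in WT (adjusted p = 6.15e-07) and -0.68 in KO lungs. Cd36, the fatty acid transporter, changed by -1.66 (adjusted p = 4.58e-07) and -1.47, respectively. Chosen after their values were seen, Cidec, a droplet fusion protein, fell by 2.88 in WT lungs, while Lpl, lipoprotein lipase, and Pparg, the lipogenic nuclear receptor, rose by 0.50 and 0.43. The lipid genes moved both ways within each genotype, as did all tested genes, of which 24.5% rose and 24.7% fell in WT and 23.3% rose and 23.4% fell in KO lungs. Adipocyte markers were low, their 6 genes summing to 2.27 to 21.2 CPM in WT-RA, 7.19 to 11.0 in WT-O2, 4.71 to 6.52 in KO-RA and 1.78 to 5.38 CPM in KO-O2 lungs. Macrophages also express Plin2, Pparg and Lpl, and of 7 macrophage markers 4 rose and 2 fell in each genotype, among them Cd68, which rose by 1.03 in WT and 1.333 in KO lungs, and Lyz2, which was at -0.587 and -0.668. Their sums were 2364 to 3449 CPM in WT-RA, 1830 to 2094 in WT-O2, 2341 to 2508 in KO-RA and 1553 to 1814 CPM in KO-O2 lungs. Lyz2 made up most of these sums, averaging 2387 of a mean sum of 2990 CPM for WT-RA and 1589 of 1937 CPM for WT-O2 lungs. For KO lungs it averaged 2233 of 2451 CPM before and 1405 of 1678 CPM under hyperoxia, where before stands for room air. The sums thus mainly follow Lyz2, whereas the 4 markers that rose were Cd68, Mrc1, Marco and Adgre1. The part of macrophages in the lipid results was not tested.

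Fgf10 (chr13:118669791-118792115, plus strand), a mesenchymal growth factor for the epithelium, was at 18.7, 15.1 and 14.7 CPM in WT-RA and 18.7, 18.9 and 21.01 CPM in WT-O2 lungs. It was at 17.6, 22.7 and 27.4 CPM in KO-RA and 20.5, 19.8 and 21.9 CPM in KO-O2 lungs. The groups overlapped in both genotypes. The log2 fold change was 0.27 (95% interval -0.03 to 0.57, adjusted p = 0.141) in WT and -0.12 (95% interval -0.42 to 0.18, adjusted p = 0.523) in KO lungs. In WT lungs it passed in 3 of the 12 fits that left out 1 lung.

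Fgf18 (chr11:33117430-33147400, minus strand), a growth factor of alveolar myofibroblasts during septation, was at 9.95, 14.8 and 26.4 CPM in WT-RA and 14.6, 17.7 and 20.7 CPM in WT-O2 lungs. In KO lungs it was at 18.5, 17.3 and 15.8 CPM in room air and 22.7, 23.1 and 18.4 CPM in hyperoxia. The WT-RA lungs spanned the whole range of the other groups, and WT-RA replicate 3 was highest of the 12. The log2 fold change was 0.05 (95% interval -0.57 to 0.66) in WT and 0.31 (95% interval -0.30 to 0.93) in KO lungs. Without WT-RA replicate 3 it was 0.51 in WT lungs (adjusted p = 0.0316), and without WT-RA replicate 1 it was -0.22, so the direction in WT lungs rested on single lungs. In KO lungs Fgf18 passed without both lungs that stood apart (0.41, adjusted p = 0.0635) and where only the KO lungs were fitted (0.31, adjusted p = 0.0425).

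Of 16 tested genes among other FGF ligands, receptors and feedback genes, 4 rose, 5 fell and 7 did not pass in WT lungs. In KO lungs 4 rose, 4 fell and 8 did not pass. The shares over all tested genes were similar, 24.5% higher and 24.7% lower in WT and 23.3% and 23.4% in KO lungs. Fgfr3 fell, with changes of -0.68 in WT (adjusted p = 3.05e-05) and -0.63 in KO lungs, as did Fgfr4, at -1.405 and -1.01. Mice that lack both receptors fail to form secondary septa. Fgf2, a broadly acting ligand, rose by 0.61 in WT lungs (adjusted p = 0.00019) and was at 0.09 in KO lungs (adjusted p = 0.5), a difference that did not pass the interaction test (unadjusted p = 0.00196, adjusted p = 0.42 by edgeR's quasi-likelihood test). Etv4, a transcription factor induced by FGF signalling and named after its values were seen, rose in both genotypes. It was at 4.97 ± 4.79 CPM in WT-RA and 24.6 ± 3.97 CPM in WT-O2 lungs (SD), so its WT-RA spread was nearly its mean. In KO lungs it was at 5.16 ± 1.36 CPM in room air and 26.8 ± 4.15 CPM in hyperoxia. The log2 fold change of Etv4 was 2.31 in WT (SE 0.531, adjusted p = 0.00725) and 2.38 in KO lungs (SE 0.53, adjusted p = 0.00663). Its relative Etv5 was at -0.21 (adjusted p = 0.104) in WT and 0.04 in KO lungs.

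Acta2 (chr19:34241090-34255590, minus strand), smooth muscle actin, was at 209.5, 300.3 and 448 CPM in WT-RA and at 697, 685 and 752 CPM in WT-O2 lungs. It was at 247, 258 and 216 CPM in KO-RA and 612, 704 and 347 CPM in KO-O2 lungs. WT-RA replicate 3, at 448 CPM, was above KO-O2 replicate 3, at 347 CPM, although within each genotype the room air and hyperoxia lungs did not overlap. The means were 319 ± 120 and 711 ± 35.9 CPM in WT and 240 ± 21.8 and 554 ± 186 CPM in KO lungs (SD, n = 3). Acta2 rose by 1.16 on the log2 scale in WT (SE 0.287, adjusted p = 0.0088) and 1.21 in KO lungs (SE 0.288, adjusted p = 0.00761), which is 2.23-fold and 2.31-fold. Leaving out 1 lung moved the WT change between 0.927 (without WT-RA replicate 1) and 1.48 (without WT-RA replicate 3), and the KO change between 1.006 (without KO-O2 replicate 2) and 1.45 (without KO-O2 replicate 3).

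Tagln (chr9:45929619-45936058, minus strand), an actin-binding protein of the same cells, was at 244.5, 261 and 366 CPM in WT-RA and 340, 380 and 414 CPM in WT-O2 lungs. In KO lungs it was at 253, 269 and 241 CPM in room air and 283.5, 318 and 208 CPM in hyperoxia. The groups overlapped in both genotypes, through WT-RA replicate 3 and KO-O2 replicate 3. The log2 fold change was 0.38 in WT (SE 0.163, adjusted p = 0.0788) and 0.09 in KO lungs (95% interval -0.26 to 0.44, adjusted p = 0.703). In WT lungs Tagln did not pass in 4 of the 12 fits that left out 1 lung. Without both of the lungs that stood apart, Tagln passed in WT (0.58, adjusted p = 0.000287) and in KO lungs (0.24, adjusted p = 0.0639). An annotated antisense gene, Gm48529, covers 1241 exonic bases of Tagln, and 62.2% of its 31-base words occur in transcripts of other genes, against 1.39% for Acta2. Whether this affected the counts of Tagln was not tested.

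Among 17 other smooth muscle contractile and cytoskeletal genes, 10 rose, 1 fell and 6 did not pass in WT lungs. In KO lungs 9 rose, 2 fell and 6 did not pass. The shares over all tested genes were 24.5% higher and 24.7% lower in WT and 23.3% and 23.4% in KO lungs. Tpm1, a tropomyosin of smooth muscle and other cells, was at 463 CPM in WT-RA and 948 CPM in WT-O2 lungs, and rose by 1.035 on the log2 scale (SE 0.09, adjusted p = 6.34e-07). Cald1, caldesmon, rose by 0.70 (adjusted p = 0.000297) and Tpm2, another tropomyosin, by 1.135 (adjusted p = 0.000414). In KO lungs these changes were 0.955, 0.58 and 0.82, respectively, and all passed. Named after their values were seen, Cnn1 and Actg2, markers of differentiated smooth muscle, rose by 1.23 and 1.53 in WT and by 1.16 and 1.55 in KO lungs. Myh11, the smooth muscle myosin heavy chain, was at 0.30 (adjusted p = 0.409) in WT and 0.54 (adjusted p = 0.144) in KO lungs, and Myl9, a myosin light chain, at -0.10 and -0.27. The genes of the list that fell were Synpo2, an actin-bundling protein, in WT lungs (-0.456, adjusted p = 0.0161), and Smtn (-0.541, adjusted p = 0.00295) and Mylk (-0.28, adjusted p = 0.0431), smoothelin and myosin light chain kinase, in KO lungs.

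**Figure D2:**
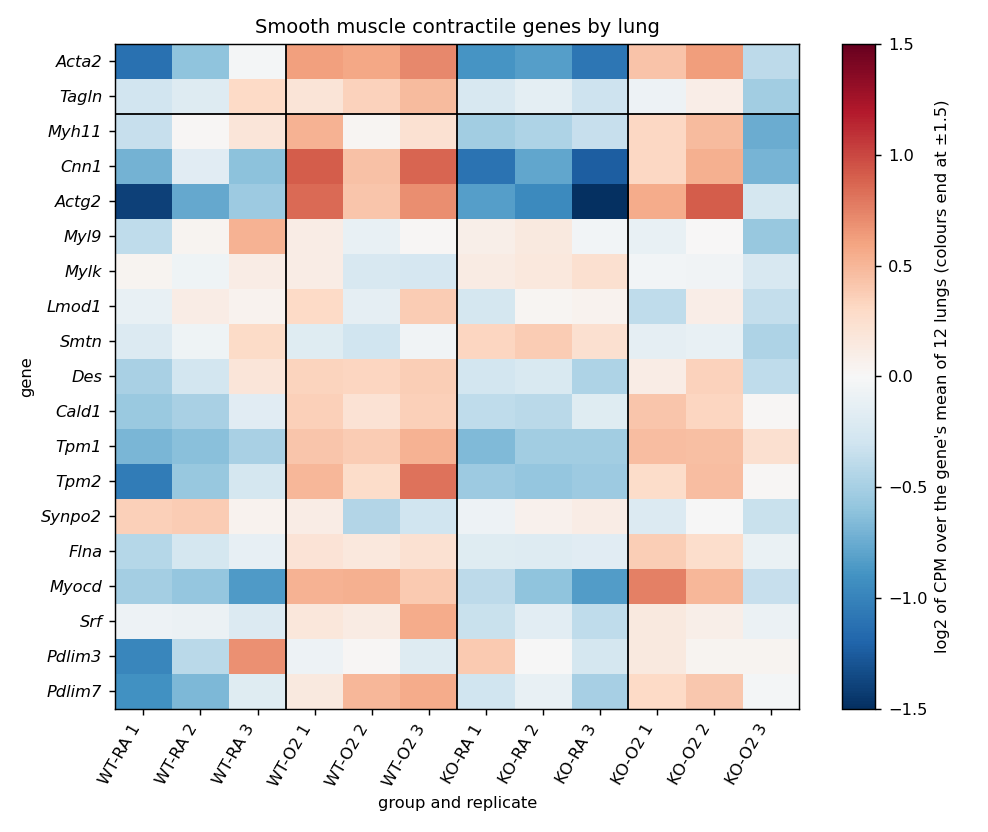
Contractile genes (rows) in each lung (columns, by group and replicate). Colour gives the log2 of a gene's CPM over its mean of the 12 lungs, red above and blue below; KO-O2 replicate 3 was the lowest of its 3 lungs for 16 of the 17 genes below the horizontal line, and WT-RA replicate 3 the highest of its 3 lungs for 12.

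The contractile genes differed between lungs of 1 group. KO-O2 replicate 3 was the lowest KO-O2 lung for 16 of the 17 other contractile genes as well as for Acta2 and Tagln, and WT-RA replicate 3 was the highest WT-RA lung for 12 of the 17 and for Acta2 and Tagln. Such an order was also seen in lungs that did not stand apart, WT-RA replicate 1 and WT-O2 replicate 2 each being the lowest of their group for 13 of the 17. In KO-RA lungs replicate 3 was lowest for 9 genes, replicate 1 for 5 and replicate 2 for 3, and replicates 2 and 3 were each highest for 7. The 5 smooth muscle markers, all held by the contractile list, summed to 268 to 394 CPM in WT-RA, 443 to 542 in WT-O2, 264 to 289 in KO-RA and 266 to 522 CPM in KO-O2 lungs, with KO-O2 replicate 3 the lowest of its group at 266 and none at 0. The 6 heart markers had their lowest sum of the group in WT-RA replicate 3, at 157 CPM against 286 and 350 CPM in the other WT-RA lungs, and in KO-O2 replicate 3, at 123.9 CPM against 218.1 and 180.5 CPM in the other KO-O2 lungs. Low heart sums were not particular to these lungs, KO-RA lungs being at 129.8 to 141.3 CPM and WT-O2 lungs at 176.7 to 218.9 CPM. The part of these marker levels in the results of Acta2 and Tagln was not tested.

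Hhip (chr8:79965851-80058006, minus strand), the membrane inhibitor that binds hedgehog ligands, was at 80.0, 69.3 and 85.1 CPM in WT-RA and 147, 144 and 117 CPM in WT-O2 lungs. It was at 74.6, 67.7 and 78.7 CPM in KO-RA and 156, 125 and 158 CPM in KO-O2 lungs. Every hyperoxia lung exceeded every room air lung. On the log2 scale Hhip rose by 0.80 (SE 0.114, adjusted p = 6.77e-05) in WT and 0.99 (SE 0.114, adjusted p = 1.13e-05) in KO lungs.

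Gli1 (chr10:127329882-127341974, minus strand), a transcription factor and readout of hedgehog signalling, was at 16.9, 22.5 and 24.01 CPM in WT-RA and 34.7, 49.2 and 46.5 CPM in WT-O2 lungs. It was at 30.0, 22.5 and 24.4 CPM in KO-RA and 40.45, 53.3 and 43.4 CPM in KO-O2 lungs. The hyperoxia lungs again lay above all room air lungs. On the log2 scale Gli1 rose by 1.04 (SE 0.167, adjusted p = 0.000269) in WT, 2.06-fold, and 0.83 (SE 0.165, adjusted p = 0.00145) in KO lungs, 1.78-fold. Hhip and Gli1, both classical target genes, thus each rose in hyperoxia in both genotypes. Lung by lung they did not follow each other, their Pearson r being -0.322 in log2 CPM after group means were taken off.

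Of 17 other hedgehog pathway genes, 9 rose, 4 fell and 4 did not pass in WT lungs. In KO lungs 8 rose, 6 fell and 3 did not pass. All tested genes had shares of 24.5% higher and 24.7% lower in WT and 23.3% and 23.4% in KO lungs. Gli2, the main activator among GLI factors, was at 17.5 CPM in WT-RA and 36.6 CPM in WT-O2 lungs, and rose by 1.06 on the log2 scale (SE 0.115, adjusted p = 5.28e-06), and rose by 0.68 in KO lungs. Boc, a co-receptor, rose by 0.62 (adjusted p = 2.33e-05) and 0.31. Scube2, a secreted protein that helps release hedgehog ligands, was at 211.5 CPM in WT-RA and 51.8 CPM in WT-O2 lungs, with changes of -2.03 in WT (adjusted p = 1.77e-06) and -1.925 in KO lungs. Named after their values were seen, the ligand Shh rose by 0.68 in WT and 0.86 in KO lungs and the receptor and target Ptch1 by 0.38 and 0.69. Foxf1, a mesenchymal transcription factor regulated by hedgehog signals, fell, with changes of -0.86 in WT and -0.44 in KO lungs. Shh, Ptch1, Gli2 and Gli3 rose in both genotypes, as did the member Gli1, whereas Foxf1, Scube1 and Scube2 fell in both. The other ligands, Ihh and Dhh, fell in KO lungs (-1.189, adjusted p = 0.0455, and -0.412, adjusted p = 0.0914) and were at 0.432 and -0.075 in WT lungs, where neither passed.

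Of 16 other alveolar myofibroblast genes, 3 rose, 6 fell and 7 did not pass in WT lungs, and 4 rose, 6 fell and 6 did not pass in KO lungs. The median log2 fold change was -0.34 in WT and -0.255 in KO lungs, against 0.46 and 0.375 for the contractile list. Enpp2, which encodes autotaxin, was at 113 CPM in WT-RA and 22.9 CPM in WT-O2 lungs and fell by 2.31 (SE 0.152, adjusted p = 8.98e-08). Igf1, a growth factor, rose from 50.5 to 280.1 CPM, a log2 fold change of 2.47 (SE 0.195, adjusted p = 1.31e-06). Efnb2, the ligand ephrin B2, fell by 1.40 (adjusted p = 1.4e-05). In KO lungs these changes were -1.99, 2.51 and -1.02. Named after their values were seen, Eln, elastin, fell by 0.66 in both genotypes, and Lox, which cross-links it, rose by 0.74 in WT and 0.49 in KO lungs. Fbn1, which encodes the microfibril protein fibrillin 1, rose by 0.74 and 0.812. Genes of this list thus moved both ways beside the rise of Acta2. Of all tested genes 24.5% rose and 24.7% fell in WT and 23.3% and 23.4% in KO lungs.

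**Figure D3:**
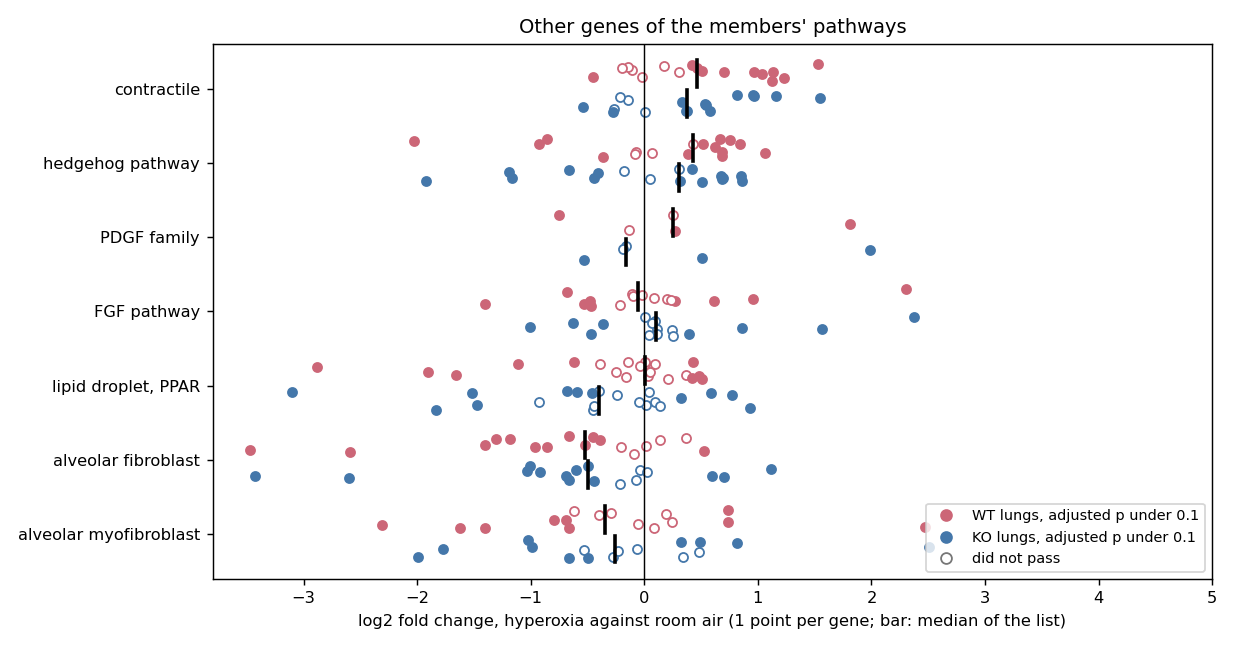
Log2 fold change of hyperoxia against room air (horizontal axis) for every tested gene of 7 lists (vertical axis), in WT (red) and KO lungs (blue). Filled points had an adjusted p under 0.1 and black bars are list medians; the contractile medians are 0.46 and 0.375, the alveolar fibroblast medians -0.52 and -0.50.

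Levels of different genes were compared as CPM per kilobase of merged exons. In WT-RA lungs Tagln (146 ± 33.2), Acta2 (145 ± 54.8) and Tcf21 (131 ± 23.4) were highest and overlapped one another. Pdgfa followed at 43.5 ± 4.27, and then Plin2, Pdgfra, Fgf18 and Hhip, at means of 31.9, 27.1, 14.4 and 8.61, each overlapping its neighbour. Gli1 and Fgf10 were lowest at 4.23 and 3.52 and overlapped. In WT-O2 lungs Acta2 stood alone at 324 ± 16.3, above Tagln at 190 ± 18.6, and Pdgfra had moved from rank 6 to rank 9 at 5.89 ± 0.694, between Gli1 and Fgf10. In KO-O2 lungs Pdgfra was likewise at rank 9 and overlapped Fgf10, and Acta2 (252 ± 84.5) and Tagln (136 ± 28.3) overlapped.

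Loss of gasdermin D was compared within each exposure. Between KO-O2 and WT-O2 lungs 0 of 10 members passed edgeR's quasi-likelihood test, 1 had an unadjusted p under 0.05, and DESeq2 passed 0. Over all tested genes 0.0416% passed and 6.21% had an unadjusted p under 0.05. The 7 genes that passed here became 35 without KO-O2 replicate 3 and 22 without WT-RA replicate 3. They became 1 without KO-O2 replicate 1, 1 without KO-O2 replicate 2 and 88 with DESeq2. The 1 member with an unadjusted p under 0.05 was Tagln, at 208 to 318 CPM in KO-O2 and 340 to 414 CPM in WT-O2 lungs. Its ranges did not overlap, but the share of all genes without overlap was not counted for this comparison. Its log2 fold change was -0.48 (95% interval -0.84 to -0.13, adjusted p = 0.62), and without both lungs that stood apart it was -0.34 (adjusted p = 0.34). Acta2 differed by -0.36 (95% interval -0.99 to 0.27), by -0.121 without KO-O2 replicate 3 and by -0.568 without KO-O2 replicate 2. Pdgfra differed by -0.30 (95% interval -0.75 to 0.15), and by -0.235 without KO-O2 replicate 3. The intervals were -0.16 to 0.25 for Pdgfa, -0.42 to 0.04 for Plin2 and -0.14 to 0.345 for Hhip.

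Between KO-RA and WT-RA lungs 0 of 10 members passed, and 2 had an unadjusted p under 0.05, where 0.488% of all genes passed and 10.5% had such a p. The 82 genes that passed here became 604 without WT-RA replicate 3, 43 without WT-RA replicate 1, 12 without WT-RA replicate 2, 4 without KO-RA replicate 2 and 2 without KO-RA replicate 3. Plin2 was at 79.5 to 95.4 CPM in KO-RA and 109.5 to 116 CPM in WT-RA lungs, without overlap, at a log2 fold change of -0.34 (SE 0.11, adjusted p = 0.253). The share of all genes without overlap was not counted for this comparison either. Fgf10 differed by 0.48 (SE 0.141, adjusted p = 0.204) with overlapping groups, and it passed with DESeq2 (adjusted p = 0.0832) and without KO-RA replicate 1 (0.626, adjusted p = 0.0706). In those 2 fits 423 of 16631 and 102 of 17073 tested genes passed, respectively. Fgf10 was at 0.318 without KO-RA replicate 3 and at 0.24 with the Y-linked covariate, and passed in neither. Of the other lipid genes 1 passed, G0s2, which averaged 85.15 CPM in KO-RA against 122 CPM in WT-RA lungs (log2 fold change -0.52, adjusted p = 0.0442). Y-linked transcripts were present in more KO than WT lungs under each exposure. With their presence as a covariate 0 members passed in either genotype comparison. Between KO-RA and WT-RA lungs 0 of all tested genes passed in that fit, so G0s2 did not pass either. The size of its change in that fit is not given here.

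The interaction asked whether the change in hyperoxia differed between genotypes. By edgeR's quasi-likelihood test 0 of 10 members passed and 0 had an unadjusted p under 0.05, and DESeq2 passed 0. Over all genes 0.00595% passed and 6.72% had an unadjusted p under 0.05. Fgf10 was nearest the threshold, with changes of 0.27 in WT and -0.12 in KO lungs and a difference of -0.39 (95% interval -0.82 to 0.03). Its difference was -0.545 without KO-RA replicate 1 and -0.237 without KO-RA replicate 3. For Pdgfra the difference was -0.31 (95% interval -0.93 to 0.32), for Acta2 0.05 (95% interval -0.84 to 0.94) and for Tagln -0.29 (95% interval -0.79 to 0.21). Leaving out WT-RA replicate 3 moved these differences to -0.091, -0.281 and -0.498, leaving out KO-O2 replicate 3 moved them to -0.243, 0.291 and -0.142, and leaving out both gave -0.022, -0.035 and -0.345. Without WT-RA replicate 1 the Pdgfra difference was -0.571. Intervals of this width leave room for differences of close to 2-fold for Acta2 and Pdgfra, so equal responses were not shown. The loss of Tagln from the passing genes in KO lungs is therefore no shown difference between genotypes.

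**Figure D4:**
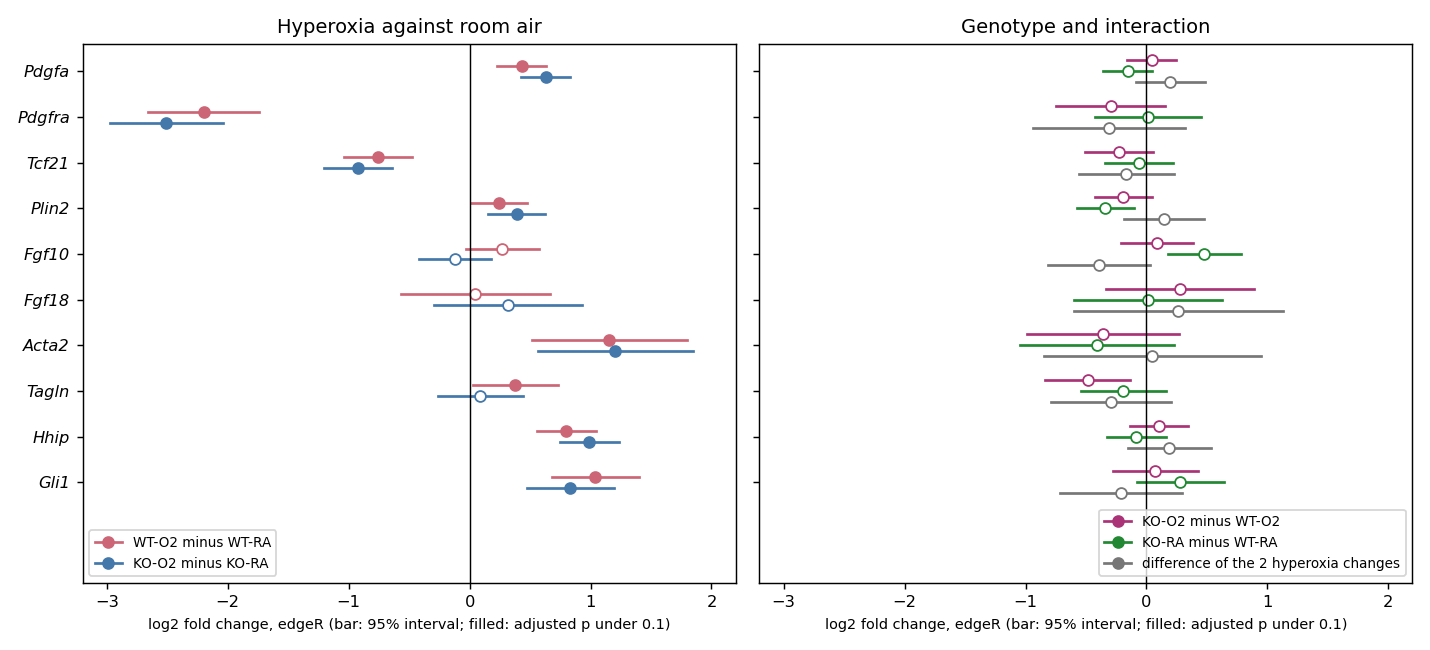
Log2 fold changes with 95% intervals for the 10 genes (vertical axis), for hyperoxia in WT and KO lungs (left) and for the 2 genotype comparisons and the interaction (right). Filled points had an adjusted p under 0.1; they occur only in the left panel, 8 in WT and 7 in KO lungs.

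Markers of other cell types moved beside these genes. For scale, 24.5% of all tested genes rose and 24.7% fell in WT and 23.3% and 23.4% in KO lungs. The 8 pericyte markers summed to 825 to 955 CPM in WT-RA and 541 to 613 CPM in WT-O2 lungs, and to 795 to 861 and 566 to 658 CPM in KO lungs. Of them 5 fell and 1 rose in WT lungs, and 7 fell and 1 rose in KO lungs, the most abundant, Pdgfrb and Notch3, falling in both. The 5 mesothelial markers summed to 105 to 205 CPM in WT-RA, 161 to 372 in WT-O2, 147 to 205 in KO-RA and 252 to 482 CPM in KO-O2 lungs, with 2 higher, 1 lower and 2 not passing in each genotype. The 8 adventitial fibroblast markers summed to 494 to 645 CPM in WT-RA, 719 to 806 in WT-O2, 599 to 621 in KO-RA and 645 to 746 CPM in KO-O2 lungs, led by Dpt and Dcn, both matrix proteins. Of these, 2 rose and 1 fell in WT lungs and 1 rose and 2 fell in KO lungs. Dcn rose by 1.502 in WT (adjusted p = 8.23e-05) and 1.234 in KO lungs, and Dpt did not pass in either. None of these markers was at 0 in every lung of a group. Alveolar type 2 markers, led by Sftpc, summed to 19830 to 22380 CPM in WT-RA and 14060 to 17010 CPM in WT-O2 lungs, with 3 of 6 lower, and to 20440 to 22420 CPM in KO-RA and 13890 to 16270 CPM in KO-O2 lungs, with 4 of 6 lower. The 5 alveolar type 1 markers summed to 3200 to 3507 CPM in WT-RA, 2732 to 3046 in WT-O2, 3049 to 3474 in KO-RA and 2754 to 2913 CPM in KO-O2 lungs. The 5 airway markers summed to 12100 to 14450 CPM in WT-RA, 10010 to 10780 in WT-O2 and 11360 to 14280 CPM in KO-RA lungs. In KO-O2 lungs the airway sum was 7699, 8996 and 11460 CPM, highest in replicate 3, the lung lowest for Acta2 and Tagln. These sums mainly follow 1 gene, Scgb1a1, which averaged 11080 of a mean sum of 13090 CPM for WT-RA and 7549 of 9385 CPM for KO-O2 lungs. Of the 5 airway genes, 2 rose (Scgb3a2 and Foxj1) and 2 fell (Scgb1a1 and Tppp3) in WT hyperoxia. In KO hyperoxia 1 rose and 3 fell. Endothelial markers summed to 3732 to 4099 CPM in WT-RA, 2744 to 3168 in WT-O2, 3380 to 3515 in KO-RA and 2544 to 3295 CPM in KO-O2 lungs, and of 6 genes 4 fell in WT and 3 fell and 1 rose in KO lungs. All 6 erythroid genes fell in WT hyperoxia, whereas in KO hyperoxia 1 fell and 5 did not pass. They took 1 to 1.14% of counts in WT-RA, 0.18 to 0.257% in WT-O2 and 0.857 to 1.75% in KO-RA lungs. In KO-O2 lungs they took 1.62, 1.79 and 0.38%, the last in replicate 3. Liver markers summed to at most 2.903 CPM except in KO-O2 replicate 1, at 153.1 CPM. The part of all these cells in the changes of the 10 genes was not tested.

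As a description, the genes whose log2 CPM followed each member most closely over the 12 lungs were listed. The lungs fall into room air and hyperoxia groups, so for members that changed in hyperoxia a high Pearson r can reflect that shared difference. Fgf10 and Fgf18 did not pass in hyperoxia in either genotype, and what their matches reflect was not tested. Pdgfra was most like Eogt (r = 0.995), Dpep1 (0.992) and Klhl33 (0.991), and Tcf21 most like Zkscan4 (0.975). Acta2 was most like Bop1 and Thoc5 (0.974 each) and Tagln most like Cdc37 (0.915). Hhip was most like Hsd17b12 (0.983), Gli1 like Mettl22 (0.979), Pdgfa like Phgdh (0.983), Plin2 like Nudt22 (0.96) and Fgf18 like Efs (0.958). Fgf10 had the lowest best match, Slc35g1 (0.899).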

How the data were processed

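RNA of 12 lungs was sequenced as 150-base paired-end reads. Per the labels and the study's methods, the authors assigned reads to mouse transcripts with kallisto, summed them by gene with tximport and deposited expected counts (estimated counts), not divided by library size. The methods name build GRCm39 and the submitters' notes mm10, versions are not given in the sources used here, and the treatment text of the labels describes cultured fat cells rather than lungs. The retina table was not used here.

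Counts were rounded, filtered with filterByExpr, scaled by TMM and tested in edgeR 4.0.16 (R 4.3.3) by a quasi-likelihood fit with 1 term per group over all 12 lungs. Samples were grouped by labelled genotype and exposure. Alternatives included DESeq2 1.42.0, other scalings and filters, a Y-linked covariate, and leaving out each lung. Positions and overlaps came from GENCODE (GRCm38) and promoters from RefSeq, where 8 members matched. Tagln and Gli1 had no entry there.

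All 10 members were named, with up to 3 genes of smallest p in WT hyperoxia per pathway list and any gene passing a genotype test, up to 2 most abundant genes per cell type list, and the closest genes by correlation. Any other gene of a list was named after its values were seen, whether or not the text says so at that gene. The members and lists were chosen with earlier results of these data known. Each value rests on 28763661 to 29604254 counts per lung and 3 mice per group, and spread between mice sets its precision.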

Additional observations from a re-analysis of the deposited data

How the results depend on the processing

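Among member results under alternatives, 1023 kept their direction and side of the threshold. Another 27 no longer met the threshold of the alternative, 10 newly met it and 30 changed sign. Requiring a 2-fold change left 3 of 8 passing members in WT and 2 of 7 in KO lungs. DESeq2 passed 1 member between KO-RA and WT-RA lungs, Fgf10, and 423 of 16631 tested genes, where edgeR passed 0 members and 82 of 16819 genes. Leaving out 1 lung gave 0 to 1 there. No sign change touched a result that had passed. With the Y-linked covariate 6 members passed in WT lungs, Plin2 and Tagln being lost. There, Fgf10 between hyperoxia groups was -0.14, and between room air groups Pdgfra was -0.088, Fgf18 -0.052 and Hhip 0.03. Without both lungs that stood apart, an alternative chosen after seeing the data, 8 members passed in WT and 9 in KO lungs and 0 in the genotype and interaction tests. There, Pdgfa between hyperoxia groups was -0.006. Between room air groups Pdgfra was -0.21, Tcf21 0.089 and Tagln 0.007, and in the interaction Fgf18 was -0.105 and Acta2 -0.035. The causes were not tested.

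Leaving out 1 lung moved Fgf18 in WT hyperoxia from -0.22 to 0.51, and in KO hyperoxia Tagln from -0.038 to 0.239 and Fgf10 from -0.272 to 0.037. Between hyperoxia groups Gli1 ranged from -0.068 to 0.164 and Pdgfa from -0.006 to 0.099. Between room air groups Pdgfra ranged from -0.21 to 0.27, Tcf21 from -0.163 to 0.089, Fgf18 from -0.26 to 0.47 and Tagln from -0.307 to 0.007. In the interaction Fgf18 ranged from -0.20 to 0.54 and Acta2 from -0.28 to 0.29. No paired analysis was possible because the labels give no replicate numbers. Whole lungs of 3 mice per group limit what could be seen.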
